A study of Homo sapiens with 9 samples.

Results

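The genes described here are 48 components of TGF-beta and BMP signalling in MCF10A cells, an immortalized line of human breast epithelium that does not form tumours. They are the ligands, latent TGF-beta binding proteins, receptors, SMADs, ID genes and feedback inhibitors of a list of symbols. The list was chosen with earlier results of these data known. Each of the 48 symbols matched 1 of the 41857 Ensembl gene IDs in the files. They were divided into a TGF-beta/activin arm of 21 genes, a BMP arm of 19 genes and 8 genes that serve both arms.

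Poly(A) RNA was sequenced from MCF10A cells that carried deltaNp63beta, deltaNp63alpha or vector only, with 3 libraries in each group and 9 in all. deltaNp63alpha and deltaNp63beta are forms of the transcription factor p63 that lack the full amino-terminal activation domain and differ at their carboxy-terminal ends. All 3 groups, vector included, carry the genotype label WT and received 500 ng/mL doxycycline, the inducer of the constructs, for 24 h. The libraries are described as biological triplicates, and what separates the replicates, and whether each line is 1 clone or a pool, is not given in the sources used here. All cells grew in medium with horse serum, epidermal growth factor, hydrocortisone, cholera toxin and insulin. No TGF-beta or BMP ligand is named among the additions, and serum can carry such ligands.

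TGF-beta, activin and BMP ligands are secreted dimers that bring type I and type II receptor kinases together. TGF-beta itself is stored in the matrix in a latent complex, held by latent TGF-beta binding proteins, and has to be released before it can act. The activated type I receptor phosphorylates SMAD2 and SMAD3 in the TGF-beta/activin arm, or SMAD1, SMAD5 and SMAD9 in the BMP arm, and these enter the nucleus with SMAD4. Many of the genes they turn on encode inhibitors of the same signal, among them SMAD6, SMAD7, PMEPA1, SKIL and BAMBI, and the ID genes are the classical BMP targets. In mammary epithelium TGF-beta is known for halting proliferation and for driving mesenchymal traits.

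The constructs were checked on total TP63 mRNA, which does not separate the isoforms. TP63 stood at 6719, 4183 and 4870.0 normalized estimated counts in the deltaNp63beta libraries, 4426, 6983 and 6961 in the deltaNp63alpha libraries, and 316, 332 and 259 in the vector libraries. All 6 isoform libraries were above all 3 vector libraries, and the 2 isoform groups overlapped. Summed normalized values differed little between libraries (22.5 to 23.2, in units of 1e6). These sums follow the authors' normalization and are not the sequencing depth, which is not known from the files. All levels below are normalized estimated counts, compared between genes per kilobase of exon, and all log2 fold changes are of log2(value + 1) with their standard error from limma. A gene was called when its Benjamini-Hochberg adjusted p over all 15108 genes tested was under 0.05.

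Of 11 mammary epithelial markers, all were detected. Their summed level ran from 377400 to 383740 in the deltaNp63beta libraries, from 255190 to 266270 in the deltaNp63alpha libraries and from 177830 to 187020 in the vector libraries. Markers of other cell types also moved between the groups. The sum of 10 fibroblast markers ran from 13066 to 14112 with deltaNp63beta, from 8357 to 8547 with deltaNp63alpha and from 11436 to 11872 with vector, most of it from FBLN1. The sum of 8 leukocyte markers ran from 1242 to 1370 with deltaNp63beta, from 1281 to 1642 with deltaNp63alpha and from 1871 to 2087 with vector, although the defining marker PTPRC averaged 1.76 over all libraries. The sum of 6 endothelial markers ran from 110 to 143 with deltaNp63beta, from 171 to 174 with deltaNp63alpha and from 204 to 276 with vector, and CDH5 averaged 0.423. The leukocyte sum hides markers that moved both ways. Of 5 leukocyte markers tested, 2 rose and 3 fell with deltaNp63beta against vector, with log2 fold changes of -1.87 to 2.77. With deltaNp63alpha 0 rose and 2 fell. No marker of the 3 lists was at 0 in all 9 libraries, and the part of these shifts in the results below was not tested. In such bulk RNA, fewer cells of a type and less RNA per cell cannot be told apart.

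With deltaNp63beta, the TGF-beta/activin arm was mostly lower than with vector. The activin subunit gene INHBA and the feedback inhibitor PMEPA1 fell furthest, SKIL, SMAD3, SMAD7, TGFB1 and TGFBR2 fell as well, and the activin antagonist FST rose most. The BMP arm moved in both directions, with ID3 and ID1 higher and SMAD6, BMP4 and BMPR2 lower. With deltaNp63alpha, INHBA, PMEPA1, SMAD3, SMAD7 and ID3 were not called, while FST and ID1 rose and SKIL, FSTL1 and LTBP3 fell.

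In numbers, 44 of the 48 genes had enough signal to be tested. In deltaNp63beta cells 7 were higher and 20 lower than with vector, which is 61.4% of those tested, against 41.3% called among all genes (21.8% higher and 19.5% lower). In deltaNp63alpha cells 5 were higher and 7 lower, 27.3% against 14.5% among all genes (8.13% higher and 6.37% lower). The count of 7 rested on single libraries: it was 3 or 4 without deltaNp63alpha replicate 2 or 3, or without any 1 of the 3 vector libraries. Between the isoforms, 5 were higher and 17 lower with deltaNp63beta than with deltaNp63alpha, 22 of 44, against 32.9% called among all genes (17.4% higher and 15.5% lower). The comparisons with vector share the same 3 vector libraries. A total of 13 of the 44 genes were called in none of the 3 comparisons. Since the genes were chosen with earlier results known, their shares beside those of all genes are no test of the module.

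**Figure D1:**
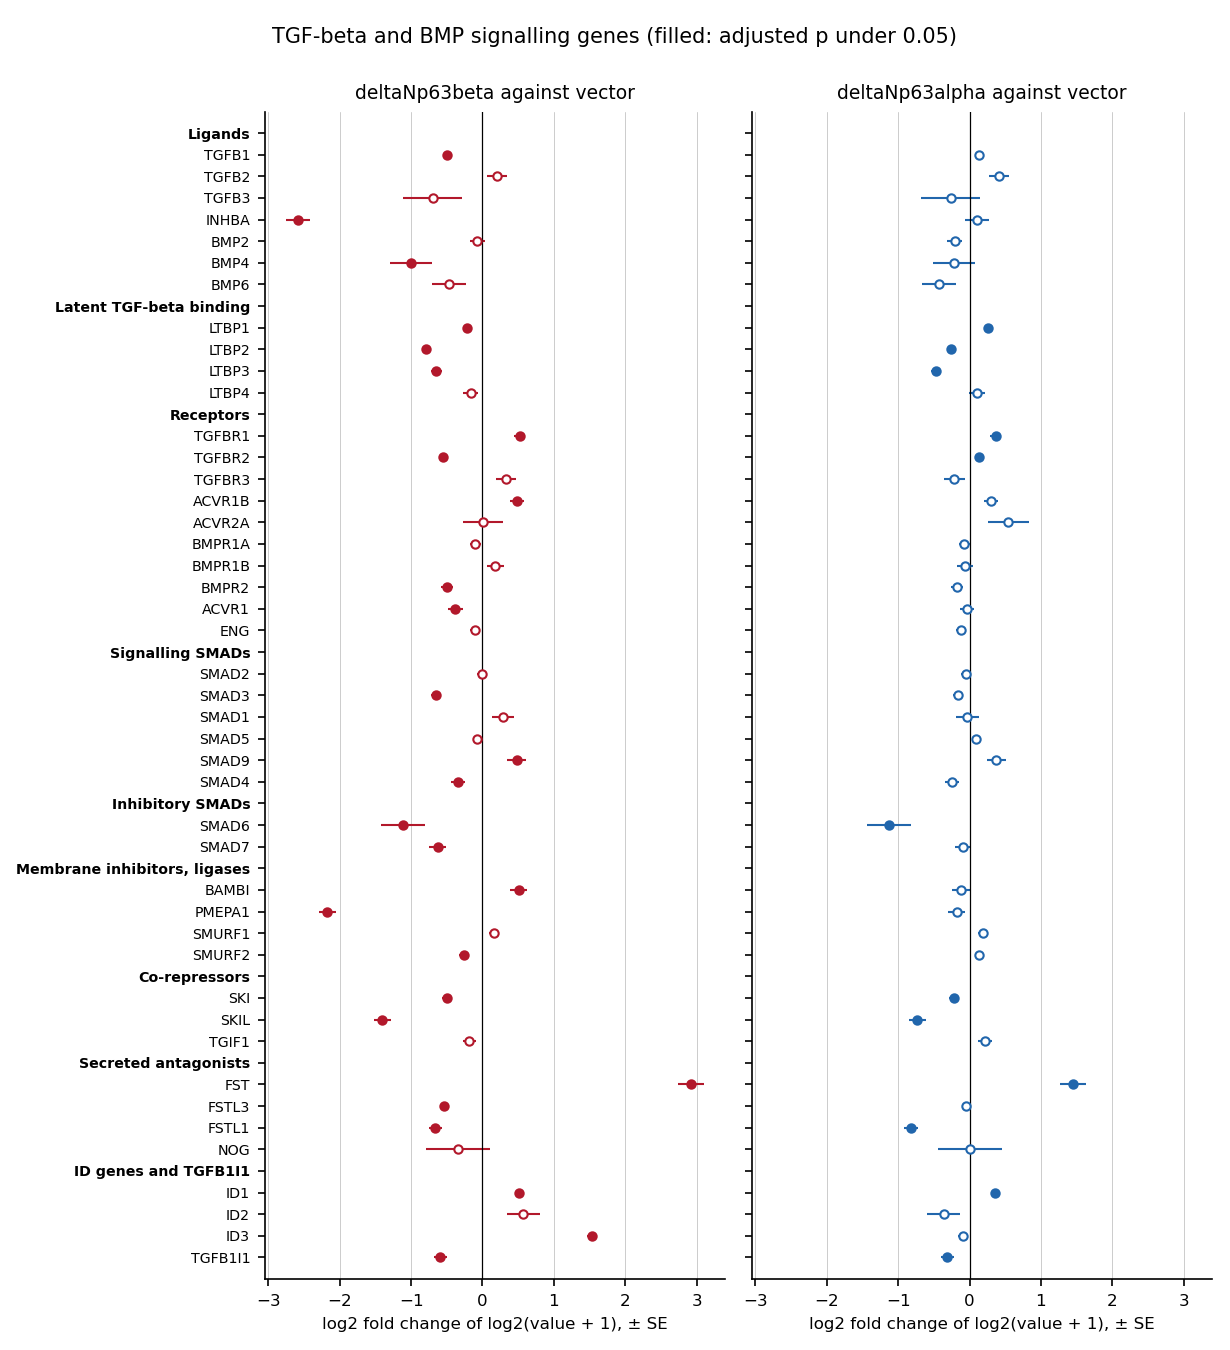
Log2 fold change of each tested gene on the horizontal axis, with its standard error, for deltaNp63beta against vector (left) and deltaNp63alpha against vector (right), grouped by role down the page; filled points have an adjusted p under 0.05. INHBA at -2.59 and PMEPA1 at -2.17 lie far to the left with deltaNp63beta and near 0 with deltaNp63alpha, and FST is on the right in both panels.

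The arms differed in their medians as well. In the TGF-beta/activin arm, 3 genes were higher and 11 lower of 20 tested with deltaNp63beta against vector, with a median log2 fold change of -0.52, where the median over all genes was -0.0048. In the BMP arm, 3 were higher and 5 lower of 16 tested, with a median of -0.09. Among the 8 shared genes 1 was higher and 4 were lower, with a median of -0.18. With deltaNp63alpha against vector, the TGF-beta/activin arm had 4 higher and 4 lower of 20, median 0.03, and the BMP arm 1 higher and 2 lower of 16, median -0.08. The shared genes had 0 higher and 1 lower, with a median of -0.10. These shares were 40.0%, 18.8% and 12.5%, against 14.5% of all genes, so the BMP arm and the shared genes were near all genes. For deltaNp63beta against deltaNp63alpha, the TGF-beta/activin arm had 2 higher and 11 lower, median -0.41, and the BMP arm 2 higher and 3 lower, median 0.06. The 31.2% of the BMP arm called between the isoforms was close to the 32.9% among all genes. The shared genes had 1 higher and 3 lower, with a median of -0.19. The difference between the arms was not tested.

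**Figure D2:**
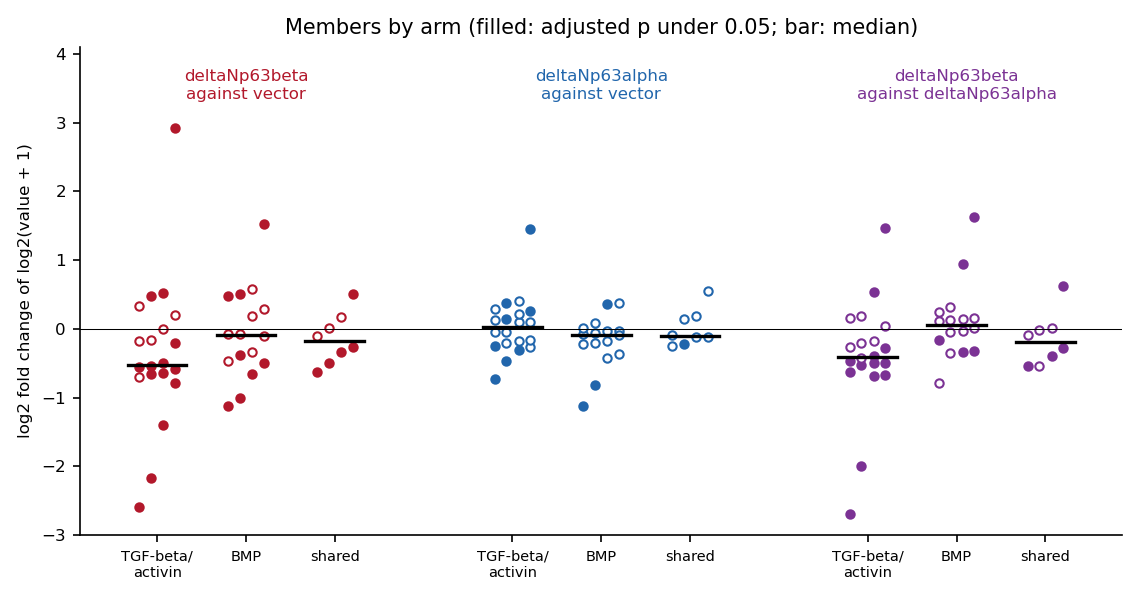
Log2 fold changes of the 44 tested genes on the vertical axis, by arm and comparison; each point is a gene, filled where the adjusted p was under 0.05, and bars mark medians. The bar of the TGF-beta/activin arm is at -0.52 for deltaNp63beta against vector and at 0.03 for deltaNp63alpha against vector, while the bars of the BMP arm stay between -0.09 and 0.06.

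SMAD proteins bind short DNA elements, and the windows upstream of the start sites were searched for them in the 6 genes called with an absolute log2 fold change of at least 1. The 4 windows printed are those of the 6 that held a match, while the windows of FST and INHBA, the genes furthest from 0 with deltaNp63beta against vector, held none and are not printed. The windows hold 250 bases before a start listed by RefSeq on GRCh38.p14, 5′ to 3′ on the gene's strand. The capitals mark matches to CAGAC, to GTCTAGAC, or to GGCGCC on either strand. CAGAC is the short SMAD box, GTCTAGAC is the palindromic SMAD element, which ends in the same letters AGAC, and GGCGCC is a GC-rich element bound by BMP SMADs. The SMAD6 window (chr15:66701986-66702235, plus strand), the SKIL window (chr3:170357465-170357714, plus strand), the ID3 window (chr1:23559502-23559751, minus strand) and, of 4 listed PMEPA1 windows, the one nearest to the 5′ end in GENCODE (chr20:57711473-57711722, minus strand) read as follows.
SMAD6: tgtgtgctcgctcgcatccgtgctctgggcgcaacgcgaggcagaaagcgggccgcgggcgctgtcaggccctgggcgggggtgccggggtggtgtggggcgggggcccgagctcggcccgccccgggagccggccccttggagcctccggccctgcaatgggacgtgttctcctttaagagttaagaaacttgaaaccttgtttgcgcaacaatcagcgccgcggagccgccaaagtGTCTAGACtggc
SKIL: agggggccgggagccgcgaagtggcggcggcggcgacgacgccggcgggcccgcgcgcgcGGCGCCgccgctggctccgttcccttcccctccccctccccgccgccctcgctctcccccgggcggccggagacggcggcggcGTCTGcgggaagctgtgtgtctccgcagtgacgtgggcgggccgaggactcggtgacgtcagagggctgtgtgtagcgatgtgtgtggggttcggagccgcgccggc
ID3: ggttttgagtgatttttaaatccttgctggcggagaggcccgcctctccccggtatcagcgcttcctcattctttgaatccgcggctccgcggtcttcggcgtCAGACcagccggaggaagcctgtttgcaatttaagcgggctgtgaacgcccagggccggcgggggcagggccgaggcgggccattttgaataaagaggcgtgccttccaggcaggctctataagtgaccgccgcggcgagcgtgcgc
PMEPA1: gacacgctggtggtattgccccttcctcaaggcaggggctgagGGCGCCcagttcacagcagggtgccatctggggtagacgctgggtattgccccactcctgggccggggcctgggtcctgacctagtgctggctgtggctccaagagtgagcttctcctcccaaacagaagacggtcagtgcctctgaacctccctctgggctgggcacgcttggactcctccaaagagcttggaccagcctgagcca

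SMAD6 held the palindrome GTCTAGAC at position -12 before its start. Among all 35116 windows of this length, 0.182% held it, and SMAD6 was the only gene of the module with a match among 44 with a window. SKIL held CAGAC (printed as its reverse complement GTCTG) at -107 and GGCGCC at -190. ID3 held CAGAC at -147. The PMEPA1 window shown held GGCGCC at -207, and CAGAC was in 2 of its 4 listed windows. Over the module, CAGAC was in 39.1% of 87 windows and in 38.0% of all windows, GGCGCC in 23.0% of the module's windows and in 16.4% of all. A p53-family half-site, searched by its consensus on both strands, was in 8.05% of the module's windows, in 5.57% of all windows, and in none of the windows listed for SMAD6, SKIL, ID3, PMEPA1, INHBA and FST. The INHBA window started from a site 2744 bases inside the gene's outermost 5′ end in GENCODE. A match describes letters only.

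INHBA encodes the subunit whose dimer is activin A, a ligand that signals through SMAD2 and SMAD3. It lies at chr7:41667168-41705834, minus strand in GRCh38. INHBA stood at 64.6, 105 and 65.9 in the deltaNp63beta libraries, 529, 460.0 and 512 in the deltaNp63alpha libraries, and 485, 439 and 472 in the vector libraries. All deltaNp63beta libraries were below all others, and the deltaNp63alpha and vector libraries overlapped. The log2 fold change was -2.59 ± 0.17 (adjusted p = 3.93e-07) for deltaNp63beta against vector and -2.69 ± 0.17 (adjusted p = 6.09e-07) for deltaNp63beta against deltaNp63alpha. For deltaNp63alpha against vector it was 0.10 ± 0.17 (adjusted p = 0.752), with a 95% interval, not adjusted over genes, of -0.27 to 0.47. INHBA overlaps the antisense gene INHBA-AS1, and PMEPA1 the antisense gene NKILA. Neither antisense gene was analysed here. The overlap is of whole gene spans, and whether exons overlap, so that reads could be mixed without strand, was not examined.

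TGFB1 encodes TGF-beta1 and had the highest level per kilobase of exon among the 9 ligand genes. Its levels were 1876, 1875 and 1842 in the deltaNp63beta libraries, 2705, 3042 and 2919.9 in the deltaNp63alpha libraries, and 2789, 2528 and 2609 in the vector libraries. Levels were lowest with deltaNp63beta, while those with deltaNp63alpha and vector overlapped. TGFB1 fell by 0.50 on the log2 scale with deltaNp63beta against vector (SE 0.06, adjusted p = 2.92e-05) and by 0.63 against deltaNp63alpha (adjusted p = 8.57e-06). Per kilobase of exon, the vector level of TGFB1 was 816, against 59.9 for BMP2, 56.1 for INHBA and 41.4 for TGFB2. TGFB1 overlaps HNRNPUL1 on the opposite strand, which was lower too at -0.24 (adjusted p = 0.00183), and whether the libraries were stranded is not given.

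BMP4, a ligand of the BMP arm, was low in all groups. It stood at 19.0, 25.3 and 23.5 in the deltaNp63beta libraries, 31.7, 47.6 and 40.2 in the deltaNp63alpha libraries, and 35.5, 65.1 and 41.7 in the vector libraries. Its fitted level with deltaNp63beta was 0.5002 times that with vector (SE 0.30 on the log2 scale, adjusted p = 0.0186). The adjusted p was 0.0564 when deltaNp63beta replicate 1 was left out and 0.0828 when vector replicate 2 was. With deltaNp63alpha the fold change was -0.22 and was not called. TGFB2, TGFB3, BMP2 and BMP6 were called in no comparison, although BMP6 was called lower with deltaNp63beta than with vector without deltaNp63beta replicate 3 (-0.70, adjusted p = 0.0330). For BMP2, the best covered of them per kilobase, the intervals were -0.30 to 0.16 for deltaNp63beta and -0.43 to 0.02 for deltaNp63alpha, both against vector. For TGFB2 they were -0.11 to 0.51 for deltaNp63beta and 0.10 to 0.72 for deltaNp63alpha. The intervals with deltaNp63beta were wider for TGFB3, -1.61 to 0.22, and for BMP6, -0.99 to 0.05. INHBB, the subunit of activin B, and BMP7 did not reach 10 in any library and were not tested.

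Members of the latent TGF-beta binding protein family other than LTBP2 tether latent TGF-beta to the matrix. Of the 4 genes of the family, LTBP2 included, 3 fell with deltaNp63beta. LTBP1 stood at 7329, 7079 and 7396 in the deltaNp63beta libraries, 9708, 10258 and 10264 in the deltaNp63alpha libraries, and 8472, 8699.9 and 8110.1 in the vector libraries. The 3 groups did not overlap, with deltaNp63alpha highest and deltaNp63beta lowest. It fell with deltaNp63beta against vector at -0.21 ± 0.04 (adjusted p = 0.00147) and rose with deltaNp63alpha against vector at 0.26 ± 0.04 (adjusted p = 0.00137). The isoforms differed by -0.47 ± 0.04 (adjusted p = 7.28e-06). On the fitted scale the deltaNp63beta level was 0.863 times the vector level, a smaller change than in LTBP2 or LTBP3.

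LTBP2 and LTBP3 were lower with both isoforms. LTBP2 averaged 2195 ± 175 with deltaNp63beta, 3169 ± 226 with deltaNp63alpha and 3777 ± 76.4 with vector (SD, n = 3 each). Its log2 fold changes were -0.79 ± 0.07 (adjusted p = 3.34e-06) with deltaNp63beta and -0.26 ± 0.07 (adjusted p = 0.0245) with deltaNp63alpha, and the isoforms differed by -0.53 (adjusted p = 0.000122). The call with deltaNp63alpha was lost without deltaNp63alpha replicate 1 or 3 or any 1 of the vector libraries, with adjusted p up to 0.088. LTBP3 averaged 1895 ± 161 with deltaNp63beta, 2139 ± 159 with deltaNp63alpha and 2958 ± 144 with vector (SD, n = 3 each). It changed by -0.64 with deltaNp63beta (adjusted p = 3.89e-05) and at -0.47 with deltaNp63alpha (adjusted p = 0.00139), and the isoforms were not called apart. LTBP4, which binds latent TGF-beta1 weakly, was called in no comparison.

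Of the 10 receptor genes, TGFBR1 and TGFBR2, the type I and type II receptors for TGF-beta, moved in opposite directions with deltaNp63beta. TGFBR2 had the highest level per kilobase among the receptors, and its normalized counts were 5611, 6077 and 6117 in the deltaNp63beta libraries, 9769, 9467 and 9508 in the deltaNp63alpha libraries, and 8740.5, 8863 and 8557 in the vector libraries. The 3 groups did not overlap. It fell with deltaNp63beta against vector at -0.56 ± 0.04 (adjusted p = 1.16e-06) and differed between the isoforms by -0.69 ± 0.04 (adjusted p = 4.17e-07). The value for deltaNp63alpha against vector was 0.14 ± 0.04 (adjusted p = 0.0486). That last call was lost when any library of deltaNp63alpha or vector, or deltaNp63beta replicate 2, was left out, with adjusted p up to 0.155.

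TGFBR1 stood at 1244, 1069 and 1275 in the deltaNp63beta libraries, 1079, 1073 and 1072 in the deltaNp63alpha libraries, and 790.4, 820.0 and 888 in the vector libraries. Every library of either isoform was above every vector library. TGFBR1 rose by 0.52 with deltaNp63beta (adjusted p = 0.00024) and at 0.37 with deltaNp63alpha (adjusted p = 0.00734). ACVR1B, the type I receptor for activin, rose with deltaNp63beta at 0.48 ± 0.10 (adjusted p = 0.00218), and with deltaNp63alpha it was at 0.29 and was not called. The difference between the isoforms in ACVR1B, 0.19, was not called either.

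Of the BMP receptors, BMPR2 and ACVR1 fell with deltaNp63beta. BMPR2, the BMP type II receptor, averaged 1083 ± 94.6 with deltaNp63beta, 1353 ± 132 with deltaNp63alpha and 1519.9 ± 45.2 with vector (SD, n = 3 each) and fell with deltaNp63beta at -0.49 ± 0.08 (adjusted p = 0.000629). ACVR1, a BMP type I receptor, changed by -0.38 ± 0.10 (adjusted p = 0.0107). Both were also lower with deltaNp63beta than with deltaNp63alpha, BMPR2 at -0.32 (adjusted p = 0.012) and ACVR1 at -0.34 (adjusted p = 0.0228). The difference in BMPR2 was lost without deltaNp63beta replicate 2 or deltaNp63alpha replicate 3, and that in ACVR1 without deltaNp63beta replicate 2 or 3 or deltaNp63alpha replicate 3. BMPR1A and BMPR1B, the other BMP type I receptors, and the activin type II receptor ACVR2A were called in no comparison, and neither was ENG, the co-receptor endoglin. TGFBR3, the co-receptor betaglycan, stood at 429.7, 441 and 502 in the deltaNp63beta libraries, 395, 256 and 305 in the deltaNp63alpha libraries, and 345, 378 and 369.6 in the vector libraries. It differed between the isoforms by 0.54 ± 0.14 (adjusted p = 0.0131), and neither comparison with vector was called. For deltaNp63beta against vector it was called, at 0.33, without deltaNp63alpha replicate 1 (adjusted p = 0.0311) or 2 (0.0456) and with only these groups in the fit (0.0260).

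SMAD3, which carries the TGF-beta and activin signal and binds DNA, was the most reduced of the signalling SMADs. It stood at 1114, 1112 and 1113 in the deltaNp63beta libraries, 1415, 1675 and 1631 in the deltaNp63alpha libraries, and 1683, 1762 and 1820.0 in the vector libraries. The deltaNp63beta libraries were below all others, and the deltaNp63alpha libraries were just below the vector libraries. The log2 fold change was -0.66 ± 0.07 (adjusted p = 1.63e-05) with deltaNp63beta against vector, -0.16 ± 0.07 (adjusted p = 0.148) with deltaNp63alpha against vector, and -0.50 ± 0.07 (adjusted p = 0.000222) between the isoforms. SMAD2, the partner of SMAD3 in this arm, was called in no comparison, with intervals of -0.16 to 0.15 for deltaNp63beta and -0.21 to 0.10 for deltaNp63alpha against vector. The change in SMAD2 was not tested against that in SMAD3.

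SMAD5, a BMP SMAD, had the highest level per kilobase in this role, with normalized counts of 3549, 3431 and 3535 in the deltaNp63beta libraries, 3829, 3836 and 4121 in the deltaNp63alpha libraries, and 3846, 3795 and 3450.0 in the vector libraries. It was not called against vector with either isoform. The difference between the isoforms, -0.16 ± 0.05 (adjusted p = 0.0308), was lost without deltaNp63beta replicate 2 or 3 or deltaNp63alpha replicate 3. SMAD9, the BMP SMAD also known as SMAD8, rose with deltaNp63beta at 0.48 ± 0.13 (adjusted p = 0.0138) and was at 0.37 with deltaNp63alpha, not called. Without vector replicate 1 the SMAD9 call was lost (adjusted p = 0.0548). SMAD4, the common partner, fell with deltaNp63beta at -0.34 ± 0.09 (adjusted p = 0.0129), a call that was lost without vector replicate 2 (adjusted p = 0.0546). SMAD1 was called in no comparison.

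The inhibitory SMADs block the receptors and SMADs. SMAD6, which acts mainly on BMP signalling, stood at 46.1, 20.5 and 28.5 in the deltaNp63beta libraries, 37.5, 27.0 and 26.2 in the deltaNp63alpha libraries, and 76.1, 60.0 and 64.1 in the vector libraries. All 6 isoform libraries were below all vector libraries, and the isoforms overlapped. SMAD6 changed by -1.12 ± 0.31 (adjusted p = 0.0131) with deltaNp63beta and at -1.13 ± 0.31 (adjusted p = 0.0318) with deltaNp63alpha, and the interval of the difference between them was -0.67 to 0.69. At these low levels the calls rested on single libraries. The adjusted p with deltaNp63beta was 0.051 when its replicate 2 was left out. With deltaNp63alpha the call was lost without deltaNp63alpha replicate 2 or 3 or any 1 of the vector libraries, with adjusted p up to 0.1015.

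SMAD7, which inhibits both arms, had levels of 206, 210.4 and 181 in the deltaNp63beta libraries, 285, 312 and 269.6 in the deltaNp63alpha libraries, and 312, 337 and 277 in the vector libraries. All 3 deltaNp63beta libraries lay below the 6 others, which overlapped among themselves. SMAD7 changed by -0.63 ± 0.12 (adjusted p = 0.00122) with deltaNp63beta against vector and at -0.54 ± 0.12 (adjusted p = 0.00451) against deltaNp63alpha, while deltaNp63alpha against vector gave -0.09 and was not called.

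PMEPA1 encodes a membrane protein that sequesters SMAD2 and SMAD3 and is itself a TGF-beta target. The gene lies at chr20:57648392-57711536, minus strand. PMEPA1 stood at 992, 1157 and 1279.6 in the deltaNp63beta libraries, 3818, 5143 and 4736 in the deltaNp63alpha libraries, and 4987, 4788 and 5656 in the vector libraries. Every deltaNp63beta library was below every other library, and the other groups overlapped. Its log2 fold change was -2.17 ± 0.12 (adjusted p = 8.56e-08) with deltaNp63beta against vector, -1.99 ± 0.12 (adjusted p = 3.88e-07) between the isoforms and -0.18 ± 0.12 (adjusted p = 0.364) with deltaNp63alpha against vector. The 95% interval of that last value was -0.43 to 0.08.

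BAMBI, a pseudoreceptor without a kinase domain that blunts both arms, moved the other way. Its levels were 179, 191 and 187 in the deltaNp63beta libraries, 125, 121 and 116 in the deltaNp63alpha libraries, and 141, 129.7 and 121 in the vector libraries. All 3 deltaNp63beta libraries exceeded the 6 others. BAMBI rose by 0.51 ± 0.12 (adjusted p = 0.00674) against vector and at 0.62 ± 0.12 (adjusted p = 0.00268) against deltaNp63alpha, and it was not called with deltaNp63alpha.

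The ubiquitin ligases SMURF1 and SMURF2 mark receptors and SMADs for breakdown. SMURF2 averaged 1628 ± 104 with deltaNp63beta, 2143 ± 132 with deltaNp63alpha and 1947 ± 109 with vector (SD, n = 3 each) and changed by -0.26 ± 0.07 (adjusted p = 0.00969) with deltaNp63beta against vector and at -0.40 against deltaNp63alpha (adjusted p = 0.001). Its neighbour CEP95, which overlaps it on the opposite strand, was also lower with deltaNp63beta (-0.66, adjusted p = 0.0018). SMURF1 was called in no comparison.

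The co-repressors SKI and SKIL bind SMAD complexes and silence their targets, and SKIL, also known as SnoN, is induced by TGF-beta. SKIL stood at 494, 395 and 358 in the deltaNp63beta libraries, 574, 674 and 728 in the deltaNp63alpha libraries, and 1119, 1048 and 1104 in the vector libraries. The 3 groups did not overlap, with deltaNp63beta lowest and vector highest. SKIL changed by -1.40 ± 0.12 (adjusted p = 3.84e-06) with deltaNp63beta and at -0.73 ± 0.12 (adjusted p = 0.00174) with deltaNp63alpha against vector. The isoforms differed by -0.67 ± 0.12 (adjusted p = 0.0014).

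SKI had the highest level per kilobase of the co-repressors, with normalized counts of 1718, 1764 and 1921 in the deltaNp63beta libraries, 2141, 2248 and 2158 in the deltaNp63alpha libraries, and 2759, 2469 and 2416 in the vector libraries. It changed by -0.50 ± 0.06 (adjusted p = 7.54e-05) with deltaNp63beta. With deltaNp63alpha it was lower at -0.22 ± 0.06 (adjusted p = 0.037), and that call was lost when any deltaNp63alpha library, vector replicate 1 or 2 or deltaNp63beta replicate 2 was left out. The isoforms differed by -0.28 (adjusted p = 0.00564). TGIF1, a homeodomain co-repressor, was called only between the isoforms among the 3 comparisons, at -0.40 ± 0.09 (adjusted p = 0.00695).

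FST, or follistatin, binds and neutralizes activin. The gene lies at chr5:53480409-53487134, plus strand. FST stood at 206, 195 and 164 in the deltaNp63beta libraries, 61.9, 66.2 and 73.1 in the deltaNp63alpha libraries, and 23.4, 26.1 and 22.2 in the vector libraries. The 3 groups did not overlap, with deltaNp63beta highest and vector lowest. It rose by 2.92 ± 0.18 (adjusted p = 2.91e-07) with deltaNp63beta, the largest rise among the tested genes of the module, and at 1.45 ± 0.18 (adjusted p = 0.000262) with deltaNp63alpha. The difference between the isoforms was 1.47 ± 0.18 (adjusted p = 0.000118). FST and INHBA thus had opposite signs with deltaNp63beta against vector. Per kilobase of exon, FST stood at 63.4 with deltaNp63beta and 8.05 with vector, and INHBA at 9.44 with deltaNp63beta and 56.1 with vector.

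FSTL3, a follistatin-like activin antagonist, moved the opposite way to FST with deltaNp63beta. It had the highest level per kilobase of the secreted antagonists. Its levels were 3819, 4195 and 4353 in the deltaNp63beta libraries, 5605, 6084 and 5682 in the deltaNp63alpha libraries, and 6041, 5882 and 6021 in the vector libraries. The deltaNp63beta libraries were below all others. FSTL3 changed by -0.54 ± 0.05 (adjusted p = 1.13e-05) against vector and at -0.49 ± 0.05 (adjusted p = 3.91e-05) against deltaNp63alpha, and with deltaNp63alpha it was at -0.05, not called. FSTL1, a secreted glycoprotein that antagonizes BMP signalling, averaged 2215 ± 265 with deltaNp63beta, 1980.3 ± 230.3 with deltaNp63alpha and 3486 ± 107 with vector (SD, n = 3 each). It fell with both isoforms, at -0.66 ± 0.09 (adjusted p = 0.000183) with deltaNp63beta and at -0.82 ± 0.09 (adjusted p = 0.000124) with deltaNp63alpha. The isoforms were not called apart, and the interval of their difference was -0.04 to 0.37. NOG, the BMP antagonist noggin, was low and called in no comparison, and GREM1, the BMP antagonist gremlin, was too low to test, with 14.5 in deltaNp63beta replicate 2 and at most 4.07 in the other libraries.

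**Figure D3:**
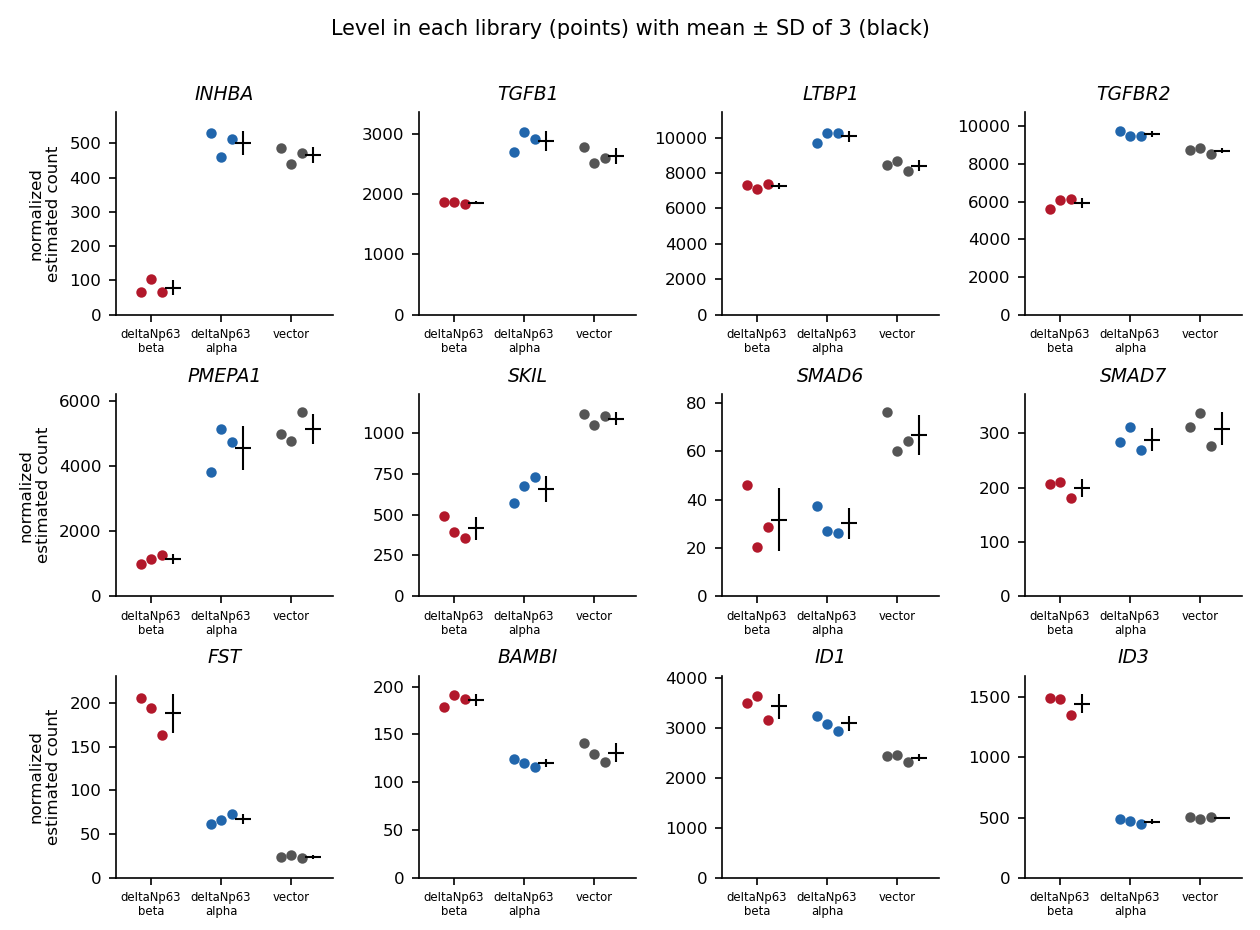
Normalized estimated counts on the vertical axis of 12 genes in each of the 9 libraries; coloured points are libraries, and the black marks are the mean ± SD of 3. The deltaNp63beta points stand apart from both other groups, which overlap, for INHBA, TGFB1, PMEPA1, SMAD7 and BAMBI. All 3 groups are separate for LTBP1, TGFBR2, SKIL, FST and ID3, with deltaNp63alpha just below vector for ID3.

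The ID genes encode inhibitors of basic helix-loop-helix factors and are direct BMP targets. ID1 had the highest level per kilobase among them, with normalized counts of 3512, 3635 and 3164 in the deltaNp63beta libraries, 3249.9, 3089.7 and 2953 in the deltaNp63alpha libraries, and 2448, 2457 and 2321 in the vector libraries. The libraries of both isoforms were above all vector libraries and overlapped each other. ID1 rose by 0.51 ± 0.06 (adjusted p = 4.25e-05) with deltaNp63beta and at 0.36 ± 0.06 (adjusted p = 0.00175) with deltaNp63alpha. The difference of 0.15 between the isoforms was not called (adjusted p = 0.079).

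ID3 lies at chr1:23557918-23559794, minus strand. It stood at 1492, 1486 and 1352 in the deltaNp63beta libraries, 487, 469 and 447 in the deltaNp63alpha libraries, and 501, 491 and 504 in the vector libraries. The deltaNp63beta libraries were far above all others, and the deltaNp63alpha libraries lay just below the vector libraries. ID3 rose by 1.53 ± 0.07 (adjusted p = 2.25e-08) with deltaNp63beta against vector and at 1.62 ± 0.07 (adjusted p = 3.68e-08) against deltaNp63alpha. With deltaNp63alpha against vector it gave -0.09 ± 0.07 (adjusted p = 0.436).

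ID2 stood at 116, 119 and 82.9 in the deltaNp63beta libraries, 71.7, 42.2 and 52.5 in the deltaNp63alpha libraries, and 66.5, 71.7 and 72.1 in the vector libraries. All deltaNp63beta libraries were above all others. ID2 was called between the isoforms, at 0.94 ± 0.23 (adjusted p = 0.0087), and in neither comparison with vector, where it gave 0.57 with deltaNp63beta (adjusted p = 0.0659) and -0.36 with deltaNp63alpha. The value with deltaNp63beta against vector was called without deltaNp63beta replicate 3 (0.74, adjusted p = 0.0344), without deltaNp63alpha replicate 1 (adjusted p = 0.0460) and with only these groups in the fit (adjusted p = 0.0460). ID4 reached 10 in only 2 of the 9 libraries and was not tested. TGFB1I1, a TGF-beta inducible co-activator known as Hic-5, averaged 418 ± 50.5 with deltaNp63beta, 505 ± 21.6 with deltaNp63alpha and 626 ± 5.75 with vector (SD, n = 3 each). It fell with deltaNp63beta at -0.59 ± 0.09 (adjusted p = 0.000374) and with deltaNp63alpha at -0.31 ± 0.09 (adjusted p = 0.0439). The call with deltaNp63alpha was lost when any library of deltaNp63alpha or vector was left out, with adjusted p up to 0.1429. TGFB1I1 was called between the isoforms too (-0.28, adjusted p = 0.0381), a call lost without any 1 library other than deltaNp63beta replicate 1.

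Sorted by their calls against vector, 3 genes were higher with both isoforms (TGFBR1, ID1 and FST) and 7 lower with both (LTBP2, LTBP3, SMAD6, TGFB1I1, FSTL1, SKI and SKIL). LTBP1 and TGFBR2 were lower with deltaNp63beta and higher with deltaNp63alpha. Some of the calls with deltaNp63alpha rested on single libraries. With 1 library left out, those of LTBP2 and SMAD6 were lost in 5 of 9 fits, TGFB1I1 and SKI in 6 and TGFBR2 in 7. A further 4 were called higher with deltaNp63beta and not called with deltaNp63alpha, namely ACVR1B, SMAD9, ID3 and BAMBI. Another 11 were called lower with deltaNp63beta and not called with deltaNp63alpha, namely TGFB1, INHBA, BMP4, BMPR2, ACVR1, SMAD3, SMAD4, SMAD7, FSTL3, PMEPA1 and SMURF2. In the direct comparison of the isoforms ACVR1B, SMAD9, SMAD4 and BMP4 were not called, and the others of these 2 sets were, with the sign they had against vector. Both comparisons with vector use the same vector libraries, and the share of all genes with each of these patterns was not computed.

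Genes of the pathway outside the module were read from a list of 63 further ligands, receptors, activators, antagonists and SMAD partners, of which 39 were tested. With deltaNp63beta against vector 7 were higher and 14 lower, with deltaNp63alpha 1 higher and 7 lower, and between the isoforms 6 were higher and 9 lower with deltaNp63beta. Called in either direction were 53.8%, 20.5% and 38.5% in these comparisons, against 41.3%, 14.5% and 32.9% among all genes, so the share between the isoforms was near that of all genes. The 7 lower with deltaNp63alpha became 4 without deltaNp63alpha replicate 2 or without vector replicate 1, and the 1 higher became 0 without any 1 of the deltaNp63alpha libraries. Their median log2 fold changes were -0.08, -0.07 and 0.03 in these 3 comparisons, beside -0.0048, -0.0059 and -3e-04 over all genes. The beta subunits ITGB6 and ITGB8 of the integrins that free latent TGF-beta rose with deltaNp63beta. ITGB6 stood at 1136, 1095 and 1223 in the deltaNp63beta libraries, 741, 680.1 and 673 in the deltaNp63alpha libraries, and 706, 739 and 681 in the vector libraries, and ITGB8 at 932, 871 and 931 in the deltaNp63beta libraries, 609, 501 and 557 in the deltaNp63alpha libraries, and 509.9, 456 and 538 in the vector libraries. For both, the deltaNp63beta libraries were above all others. Their log2 fold changes against vector were 0.70 ± 0.07 (adjusted p = 1.44e-05) and 0.86 ± 0.09 (adjusted p = 2.05e-05), and with deltaNp63alpha neither was called. ITGAV, the alpha subunit of these integrins, went the other way and was lower with both isoforms. It was at -0.24 with deltaNp63beta (adjusted p = 0.0056) and at -0.26 with deltaNp63alpha (adjusted p = 0.0089).

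The matrix proteins FBN1, a fibrillin that anchors latent complexes, and DCN, the proteoglycan decorin that binds TGF-beta, fell with both isoforms. FBN2, another fibrillin of the list, had the higher level, at 725 per kilobase of exon with vector against 62.8 for FBN1. FBN2 was not called with deltaNp63beta, at -0.04 (adjusted p = 0.499), and was lower with deltaNp63alpha, at -0.18 (adjusted p = 0.0246). DCN averaged 166 ± 29.3 with deltaNp63beta, 349.6 ± 8.07 with deltaNp63alpha and 1210.5 ± 2.23 with vector (SD, n = 3 each), and FBN1 averaged 234 ± 59.9 with deltaNp63beta, 347 ± 49.9 with deltaNp63alpha and 1008 ± 47.4 with vector. The DCN log2 fold change was -2.87 ± 0.11 (adjusted p = 8.40e-09) with deltaNp63beta and -1.79 ± 0.11 (adjusted p = 1.52e-06) with deltaNp63alpha, and that of FBN1 was -2.13 ± 0.16 (adjusted p = 1.62e-06) with deltaNp63beta and -1.54 ± 0.16 (adjusted p = 7.37e-05) with deltaNp63alpha. DCN is also one of the 10 fibroblast markers, 7 of which could be tested: 3 of them rose (COL1A1, FBLN1 and MFAP5) and 2 fell (DCN and FAP) with deltaNp63beta, while with deltaNp63alpha 0 rose and 3 fell (DCN, FBLN1 and FAP).

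AMH, the anti-Müllerian hormone, a ligand of the family, is named after its values were seen, as the only other gene of the list called with an absolute log2 fold change of at least 1 with deltaNp63beta against vector. It was low, at 16.4, 38.7 and 35.3 in the deltaNp63beta libraries, 59.9, 37.9 and 40.9 in the deltaNp63alpha libraries, and 66.6, 46.7 and 84.7 in the vector libraries. The deltaNp63beta libraries were below the vector libraries, and the deltaNp63alpha libraries overlapped the deltaNp63beta and the vector libraries. AMH changed by -1.15 ± 0.36 (adjusted p = 0.023) with deltaNp63beta, a call lost without deltaNp63beta replicate 1 or vector replicate 1 or 3 (adjusted p up to 0.0887), and was not called with deltaNp63alpha or between the isoforms.

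The other genes of the list with the smallest adjusted p changed less than ITGB6. With deltaNp63beta, TGIF2, a co-repressor, was at 0.57 (adjusted p = 0.00153) and GDF15, a distant ligand of the family, at 0.61 (adjusted p = 0.0017). E2F4, a partner of SMAD3 in repression, was at -0.44 (adjusted p = 4.51e-05). STRAP, a receptor-associated inhibitor, was at -0.18 (adjusted p = 0.00127), and TWSG1, an extracellular BMP modulator, at -0.20 (adjusted p = 0.00298). None of these 5 was called with deltaNp63alpha. FKBP1A, which holds the type I receptor inactive, was lower with deltaNp63beta, at -0.26 ± 0.04 (adjusted p = 0.000196), and higher with deltaNp63alpha, at 0.14 ± 0.04 (adjusted p = 0.0249). The call with deltaNp63alpha was lost without any 1 of the deltaNp63alpha libraries or without vector replicate 2 or 3, with adjusted p up to 0.108.

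Genes known to respond to TGF-beta were mostly lower with deltaNp63beta. Of 26 listed and 24 tested, 4 were higher and 17 lower with deltaNp63beta against vector, with a median log2 fold change of -0.92. With deltaNp63alpha 3 were higher and 9 lower, with a median of -0.25, and between the isoforms 4 were higher and 15 lower with deltaNp63beta. Among all genes 21.8% were higher and 19.5% lower with deltaNp63beta, 8.13% higher and 6.37% lower with deltaNp63alpha, and 17.4% higher and 15.5% lower between the isoforms. ANGPTL4, which encodes a secreted inhibitor of lipoprotein lipase, stood at 2302, 2539.5 and 2510.2 in the deltaNp63beta libraries, 10927, 12488 and 12774 in the deltaNp63alpha libraries, and 10051, 10418 and 11129 in the vector libraries. Every deltaNp63beta library was far below the rest, and ANGPTL4 changed by -2.10 ± 0.06 (adjusted p = 1.04e-09) against vector and by -2.30 ± 0.06 (adjusted p = 1.75e-09) against deltaNp63alpha. With deltaNp63alpha against vector it gave 0.19 ± 0.06 (adjusted p = 0.0723), which passed without deltaNp63alpha replicate 1 (0.26, adjusted p = 0.0158). The gene span of ANGPTL4 overlaps RAB11B-AS1 on the opposite strand, and whether their exons overlap was not examined.

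The matrix genes FN1 (fibronectin) and TGFBI and the matricellular gene CCN2 were lower with both isoforms. With deltaNp63beta they changed by -3.92, -2.16 and -2.33, and with deltaNp63alpha by -1.15, -0.84 and -0.32, the largest adjusted p being 0.00726, for CCN2 with deltaNp63alpha. The 4 genes against the direction were TAGLN, LTBR, ITGB6 and COL1A1, which were higher with deltaNp63beta. They are named because they went against the rest, after their values were seen. The COL1A1 call was lost when any deltaNp63beta library or vector replicate 2 or 3 was left out. TAGLN, a smooth muscle actin-binding protein, rose with both isoforms, at 1.63 ± 0.09 (adjusted p = 1.07e-07) with deltaNp63beta and at 1.07 ± 0.09 (adjusted p = 1.31e-05) with deltaNp63alpha.

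**Figure D4:**
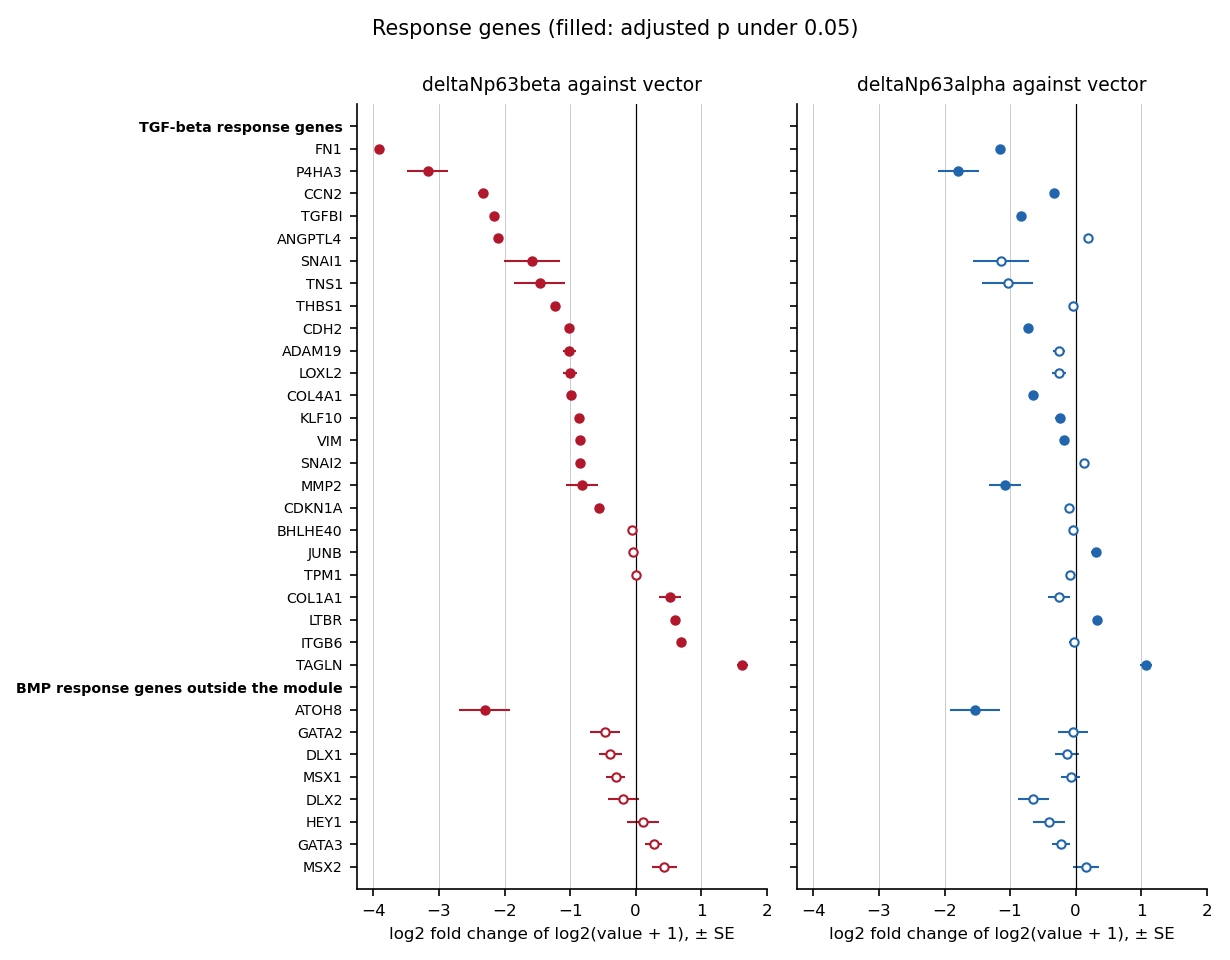
Log2 fold change of the tested TGF-beta response genes and of the BMP response genes outside the module, with standard errors on the horizontal axis, for deltaNp63beta against vector (left) and deltaNp63alpha against vector (right); filled points have an adjusted p under 0.05. With deltaNp63beta 17 of 24 TGF-beta response genes are filled on the left of 0, and among the BMP response genes ATOH8 at -2.30 is the filled point.

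BMP response genes outside the module showed few calls. Of 8 tested, 0 were higher and 1 lower with deltaNp63beta against vector, namely ATOH8, a helix-loop-helix factor, which is 12.5% of them, against 41.3% called among all genes. It stood at 18.8, 16.8 and 10.3 in the deltaNp63beta libraries, 48.0, 20.7 and 17.5 in the deltaNp63alpha libraries, and 88.4, 66.9 and 78.0 in the vector libraries. The groups of both isoforms were below the vector libraries. ATOH8 changed by -2.30 ± 0.39 (adjusted p = 0.000612) with deltaNp63beta and at -1.54 ± 0.39 (adjusted p = 0.0211) with deltaNp63alpha. The call with deltaNp63alpha was lost without deltaNp63alpha replicate 2 or 3 or vector replicate 1 or 3, with adjusted p up to 0.080. The other 7 genes were called with neither isoform against vector. The standard errors of HEY1, DLX1, DLX2, MSX1, MSX2 and GATA2 ran from 0.14 to 0.24, beside a median of 0.11 over all genes. Changes in these genes were thus harder to call than in most genes, and the low share called does not show that they were unchanged. GATA3, a zinc finger factor, was called higher with deltaNp63beta than with deltaNp63alpha, at 0.50 ± 0.13 (adjusted p = 0.0126), a call lost without deltaNp63alpha replicate 2 (adjusted p = 0.05004). With the module's own ID genes, inhibitor genes and SMAD9 counted in, 4 of 15 were higher and 3 lower with deltaNp63beta, and the 46.7% called was near the 41.3% among all genes.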

How the data were processed

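Poly(A) RNA of 9 MCF10A libraries was analysed from the deposited signal values, 1 per gene and library. Per the submitters' processing notes the authors used kallisto 0.46.2, the build GRCh38 and DESeq2 (no version stated) to obtain normalized counts estimated per gene. The step that produced the deposited numbers is not given in the sources used here, nor is the strandedness. Groups came from the sample titles. Each library gives 41857 gene IDs, and 36387 have a symbol. Positions, exon lengths and overlaps came from GENCODE release 29. By gene span, 31 of the 48 genes overlap another gene, 15 on the same strand and 24 on the opposite strand.

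A gene was tested where 3 or more libraries reached a value of 10, which left 15108 genes. limma 3.58.1 in R 4.3.3 was fitted to log2(value + 1), with a mean-variance trend and robust moderation, over all 9 libraries with a coefficient per group, and p-values were adjusted over all genes by Benjamini-Hochberg. The pseudocount makes fold changes of low genes smaller. Sums of normalized values do not give the depth, so no counting error was computed. Full values are given for genes called with an absolute log2 fold change of at least 1 in any comparison and for the highest gene of each role. From the list of other pathway genes the 10 with the smallest adjusted p with deltaNp63beta, and any called in opposite directions, are named, and from the response lists the 4 with the smallest adjusted p. A gene of the TGF-beta response list is not reported here and is left out of its counts. Other genes named were chosen after their values were seen. The genes, lists and tests were chosen with earlier results of these data known, and no test was made over a list. Alternatives were a pseudocount of 0.1 or 10, no filter or a filter at 50, median-of-ratios factors, quantile normalization, equal totals, only the groups compared, a replicate block, no moderation trend, and leaving out each library. The list counts under these settings were added after seeing the data. Promoter sequences came from RefSeq tables (GRCh38.p14). Files were read with pandas 2.3.3 and numpy 2.4.6 in Python 3.11.15, and plots were drawn with matplotlib 3.10.9.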

Additional observations from a re-analysis of the deposited data

Results flagged for a closer look

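LTBP1 and TGFBR2 were singled out because they moved in opposite directions with the isoforms against vector and the isoforms differed in the direct test. For LTBP1 the difference of deltaNp63beta minus deltaNp63alpha was -0.47 (adjusted p = 7.28e-06), with -0.21 for deltaNp63beta and 0.26 for deltaNp63alpha against vector. Every deltaNp63beta library was below, and every deltaNp63alpha library above, all vector libraries. For TGFBR2 the difference was -0.69 (adjusted p = 4.17e-07), with -0.56 for deltaNp63beta and 0.14 for deltaNp63alpha against vector. The TGFBR2 value for deltaNp63alpha passed the threshold narrowly (adjusted p = 0.0486) and failed it in most fits that left out 1 library, 7 of 9.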

How the results depend on the processing

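Of 1311 values of the module's genes under alternatives other than leaving out a library, 1288 stayed on their side of the threshold, 17 lost the call, 6 gained it and 0 changed sign while called in either fit, while 7 called in neither fit changed sign. With 1 library left out, 1126 of 1188 stayed on their side, 50 lost the call, 12 gained it and 0 changed sign while called, while 31 called in neither fit changed sign. Calls gained without a library, beside those of ID2, TGFBR3 and BMP6, were of ACVR1B and SMAD4 for deltaNp63alpha against vector and of LTBP4, TGFBR1, ID1 and FSTL1 between the isoforms, with adjusted p of 0.0135 to 0.0461. The TGFBR2 call with deltaNp63alpha against vector was lost without the filter (adjusted p = 0.0744), with quantile normalization (0.0689), with equal totals (0.0774), with the replicate block (0.0908) and without trend and robust moderation (0.143).

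Median log2 fold changes of the arms moved in several settings, and the cause was not tested. For deltaNp63beta against vector the BMP arm was at -0.15 with quantile normalization and -0.12 with equal totals, beside -0.09. For deltaNp63alpha against vector the TGF-beta/activin arm was at 0.10 with the filter at 50, beside 0.03, where fewer genes were tested. For deltaNp63beta against deltaNp63alpha the TGF-beta/activin arm was at -0.36 with a pseudocount of 10 and -0.38 with quantile normalization, beside -0.41, and the BMP arm at 0.12 with the filter at 50, beside 0.06. For deltaNp63beta against vector, equal totals moved the median of all genes by -0.0355, the largest shift under any scaling. Quantile normalization moved it by -0.0103 in that comparison.

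With 1 library left out, the genes lower with deltaNp63alpha numbered between 3 and 7. The TGF-beta/activin median for deltaNp63beta against vector lay between -0.52 and -0.46, the BMP median for deltaNp63alpha between -0.13 and -0.0839, and that between the isoforms between 0.0034 and 0.11. The genes lower with deltaNp63beta than with vector numbered between 18 and 21, and those higher between 6 and 9.

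A fit with the replicate number as a block called 7 higher and 20 lower with deltaNp63beta, 4 higher and 5 lower with deltaNp63alpha, and 6 higher and 16 lower between the isoforms. It ended the calls of TGFBR2, SKI (adjusted p = 0.0750) and TGFB1I1 (0.0654) with deltaNp63alpha and of SMAD5 (0.0584) and TGFB1I1 (0.0520) between the isoforms, and it called BMP4 (0.0495) and ID1 (0.0454) between the isoforms. Same-numbered libraries had residual correlations of -0.117 to 0.081 and differently numbered ones -0.144 to 0.122. For 2 of 9 libraries the closest had their own number. No pairing by number was visible, but with 3 libraries in each group these values cannot tell whether libraries shared a day or batch. The depth behind low genes such as SMAD6 and BMP4 is unknown, which limits their precision.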
